A study of Mus musculus with 12 samples.

Results

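The baseline of the experiment is the lens capsule with its attached lens cells (LCs) collected at 0 h post cataract surgery (PCS), compared between β8ITG-cKO and WT mice. It covers 6 of the 12 RNA libraries of the series, 3 from WT and 3 from β8ITG-cKO capsules, and every gene of the table that holds them was eligible. Of 45859 genes listed, 14708 averaged 0.5 FPKM or above (fragments per kilobase of transcript, scaled to sequencing depth) over the 6 libraries and were tested. The comparison asks how LCs with and without the floxed part of Itgb8 differed when the lens fiber cells had only just been taken out, before the response to surgery that was sampled at 24 h.

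WT mice were C57BL/6. β8ITG-cKO mice carried a floxed Itgb8 allele that was removed by MLR10-Cre, a lens-specific transgene active in all lens cells from the lens vesicle stage, and their background is given as a mix of C57BL/6 and 129S1/Sv. The sources name neither the Cre nor the floxed allele for WT, so strain, Cre and deletion all differ between the 2 groups and cannot be told apart. All mice were 2 months old, and each library was made from 5 pooled capsules that were frozen after the fiber cells had been removed. With pooled capsules of 3 libraries a group, p-values measure the spread between these libraries.

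Integrins are cell surface receptors of an α and a β chain. The β8 chain pairs with αV and binds the latency associated peptide of TGF-β, one of the routes by which latent TGF-β outside the cell becomes active. Cells that are injured or handled switch on immediate early genes such as Fos and Egr1 within minutes, without new protein synthesis, and chemokine, NF-κB and stress genes follow. Lens epithelial cells also carry a circadian clock, in which the proteins of Per, Cry and Nr1d genes repress the activators Clock and Arntl.

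The deletion removes exon 4 of Itgb8. In the annotated transcript this exon lies at chr12:119192081-119192327 on the minus strand of GRCm38, is 247 bases long, is wholly coding and is 1 of 14 exons. It makes up 2.94% of the transcript and 10.7% of the coding sequence, and its length leaves a remainder of 1 after division by 3. It is shown because it is the stretch that the design takes out.
Itgb8 exon 4: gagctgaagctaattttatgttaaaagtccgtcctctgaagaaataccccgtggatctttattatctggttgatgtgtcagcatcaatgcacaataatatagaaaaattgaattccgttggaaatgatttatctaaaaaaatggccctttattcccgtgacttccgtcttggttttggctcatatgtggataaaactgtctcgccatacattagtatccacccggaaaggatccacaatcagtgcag

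FPKM are summed over the whole gene and do not separate this exon from the other 13. Itgb8 had 7.26, 10.8 and 8.42 FPKM in WT and 6.83, 4.58 and 7.31 FPKM in β8ITG-cKO. The groups overlapped, since β8ITG-cKO replicate 3 lay just above WT replicate 1. The log2 difference was -0.45 (standard error 0.19, adjusted p = 0.209, limma-trend), which did not pass the threshold, so the gene-level value does not check the genotype labels here. Its partner chain did not pass either. Itgav, the αV chain, had 29.9, 27.7 and 30.0 FPKM in WT and 30.6, 33.2 and 32.5 FPKM in β8ITG-cKO (log2 difference 0.13, adjusted p = 0.425). Itgb1, which pairs with many α chains, differed by 0.34 (adjusted p = 0.0856). Itgb5, another αV partner, had 107, 98.8 and 102 FPKM in WT and 139, 164 and 140 FPKM in β8ITG-cKO, a log2 difference of 0.52 with an adjusted p of 0.0335. It did not meet the call criteria, and its adjusted p was between 0.0569 and 0.118 with any single library left out. None of the 10 integrin genes tested was called, where 2.52% of all genes were.

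Calls required an adjusted p of 0.05 or less, group means that differed more than 2-fold and by more than 2 FPKM, and at least 2 FPKM in 1 group. Of the 14708 genes tested, 371 were called (2.52%), 198 higher (1.35%) and 173 lower (1.18%) in β8ITG-cKO. By adjusted p alone 1020 genes passed (6.94%), with 4.18% higher and 2.75% lower, and in 4525 genes (30.8%) the 2 groups did not overlap. The median gene differed by 0.02 on the log2 scale. Falls were the steeper changes, with 62 of 173 over 4-fold against 39 of 198 rises. Predicted genes, pseudogenes and small RNA genes, recognised by their symbols, made up 43.9% of rises and 4.05% of falls, compared with 17.7% of all genes tested. The number of calls fell to 125 without β8ITG-cKO replicate 3, to 206 without WT replicate 1 and to 214 without β8ITG-cKO replicate 2, and it was 130 when genes of any level were tested.

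**Figure D1:**
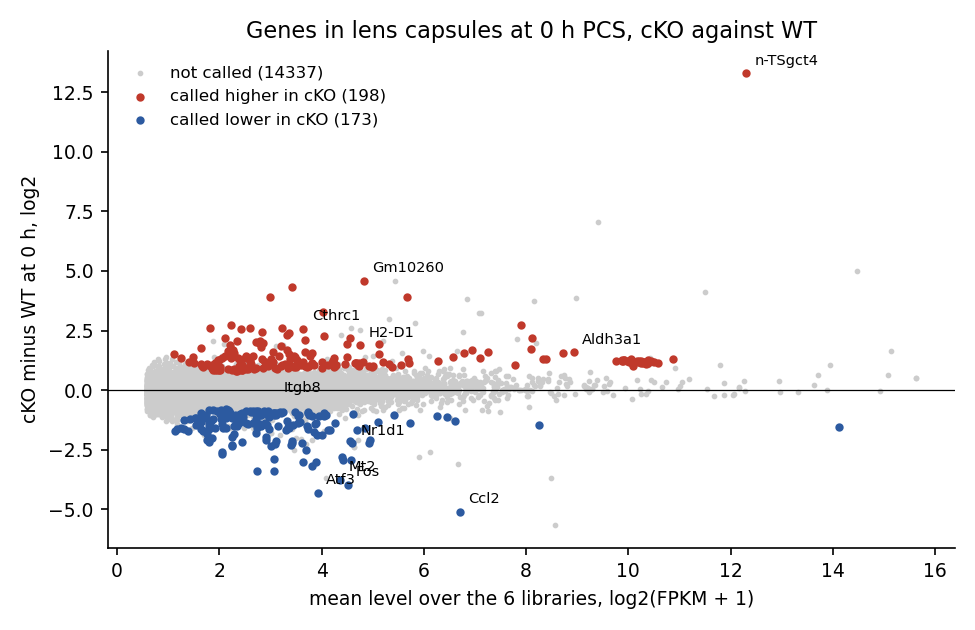
Each point is 1 of the 14708 genes tested at 0 h PCS, with its mean level over the 6 libraries on the x axis (log2 of FPKM + 1) and the β8ITG-cKO (cKO) minus WT difference on the y axis (log2). Red points are the 198 genes called higher and blue points the 173 genes called lower in β8ITG-cKO. Ccl2 is the lowest called point at -5.10, Itgb8 lies near 0 at -0.45, and the row of red points with x near 10 holds the 5S rRNA copies.

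The 6 libraries formed 2 sets. Over 10223 genes averaging 2 FPKM or above, correlations of log2 values across genes were 0.932 to 0.950 among WT libraries, 0.960 to 0.969 among β8ITG-cKO libraries and 0.907 to 0.919 between the groups. Summed FPKM ran from 446531 to 640837 in WT and from 661583 to 740140 in β8ITG-cKO, and the 10 highest genes held 43.1% to 49.6% of the sum. Relative depths, read from the steps between low FPKM values, were between 0.871 and 1.09. Cryaa, the αA-crystallin gene, was listed at 0 in WT replicate 2, while its lowest value elsewhere was 24296 FPKM, so a listed 0 can be a failed estimate. Xist, expressed by females, had 0.0354, 19.9 and 60.6 FPKM in WT and 44.2 to 45.9 FPKM in β8ITG-cKO. The Y-linked Ddx3y had 11.3, 5.49 and 0.00723 FPKM in WT and 0, 2.13 and 1.24 FPKM in β8ITG-cKO, and the part of sex in the results was not tested.

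Among the gene lists, falls were most numerous in the immediate early genes. In β8ITG-cKO capsules, 19 of 29 tested members (65.5%, against 1.18% of all genes) fell and none rose, and 28 of 29 had a difference below 0. The median member lay at -1.74 on the log2(FPKM + 1) scale, where the median of all genes was 0.02. Summed over the list, WT libraries held 759, 489 and 319 FPKM and β8ITG-cKO libraries 126, 108 and 117 FPKM, a 4.46-fold difference of means.

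Fos, a subunit of the AP-1 transcription factor, had 83.6, 29.6 and 14.02 FPKM in WT and 1.08, 1.09 and 1.37 FPKM in β8ITG-cKO. The β8ITG-cKO libraries sat within a narrow band while the WT libraries were spread about 6-fold, and the lowest WT library was still far above every β8ITG-cKO library. The log2 difference was -3.96 (standard error 0.53, adjusted p = 0.00866). Atf3, a stress-induced transcription factor, went from 46.7, 28.6 and 8.99 FPKM in WT to 0.385, 0.123 and 0.173 FPKM in β8ITG-cKO. This was a log2 difference of -4.30 (standard error 0.49, adjusted p = 0.00457). Egr1, a zinc finger factor induced by growth factors, had 61.9, 42.4 and 8.96 FPKM in WT and 3.15, 2.78 and 2.93 FPKM in β8ITG-cKO. Its log2 difference was -2.93 (standard error 0.59, adjusted p = 0.0290). The adjusted p was 0.0672 to 0.104 when any one library other than WT replicate 3 was left out.

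The list also holds feedback regulators of the response. Dusp5, a phosphatase that inactivates ERK, had 38.2, 14.5 and 20.6 FPKM in WT and 1.63, 1.99 and 1.29 FPKM in β8ITG-cKO, a log2 difference of -3.17 (standard error 0.31, adjusted p = 0.00269). Zfp36, which binds and destabilizes inflammatory mRNAs, had 31.8, 22.9 and 9.30 FPKM in WT and 1.75, 1.24 and 1.55 FPKM in β8ITG-cKO, a log2 difference of -3.00 (standard error 0.37, adjusted p = 0.00635). Outside the list, Gem, a small GTP-binding protein, and Adamts1, a secreted protease, were among the 12 largest falls. Gem had 28.5, 8.08 and 5.59 FPKM in WT and 0.502 to 0.776 FPKM in β8ITG-cKO (log2 difference -2.87, adjusted p = 0.0184). Adamts1 had 44.4, 25.1 and 8.41 FPKM in WT and 1.39 to 2.28 FPKM in β8ITG-cKO (log2 difference -3.02, adjusted p = 0.0171). In both genes the adjusted p rose above 0.05 without any one β8ITG-cKO library (0.0514 to 0.0794 for Gem and 0.0534 to 0.0788 for Adamts1).

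Members named beside the count, chosen after their values were seen, were Jund, Junb and Jun, further AP-1 subunits. Jund had 81.4, 75.8 and 67.9 FPKM in WT and 29.5, 27.9 and 27.8 FPKM in β8ITG-cKO (log2 difference -1.37, standard error 0.10, adjusted p = 9e-04). Junb differed by -2.52 (adjusted p = 0.0144) and Jun by -2.09 (adjusted p = 0.0197). WT replicate 1 was the highest WT library in 18 of the 19 called members and WT replicate 3 the lowest in 13 of them. Of the 6 libraries, WT replicate 1 also had the least Xist and the highest sums of pigment cell markers and of blood and vessel markers. The part of sex or of such RNA in these falls was not tested. Without WT replicate 1, 12 members were called. The count was 10 without β8ITG-cKO replicate 2, 8 without β8ITG-cKO replicate 3 and 7 when genes of any level were tested.

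**Figure D2:**
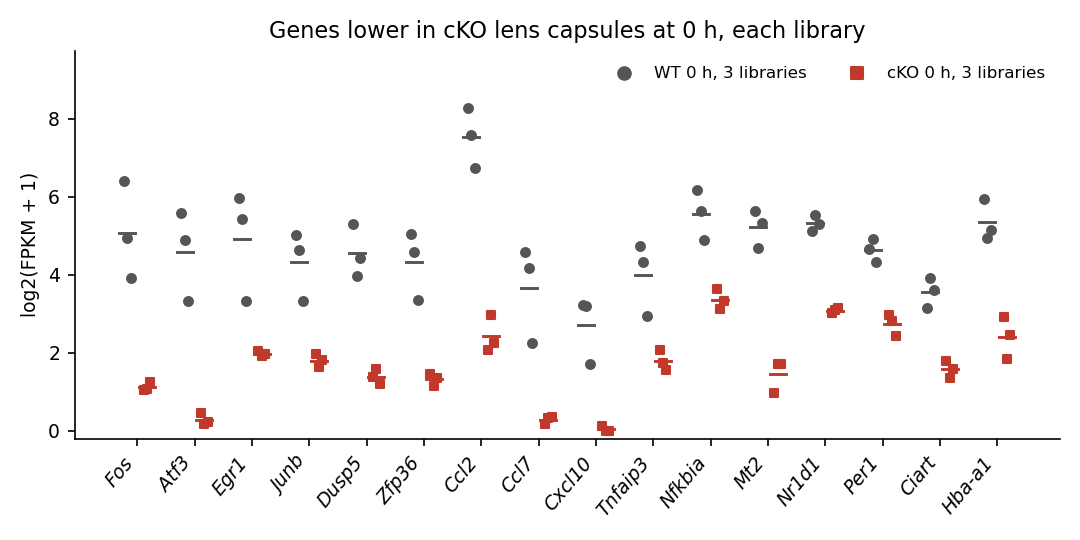
Expression of 16 genes that were lower in β8ITG-cKO lens capsules at 0 h PCS, in log2(FPKM + 1) on the y axis. Gray circles are the 3 WT libraries, red squares the 3 β8ITG-cKO (cKO) libraries, each drawn from replicate 1 on the left to replicate 3 on the right, and bars are group means. In all 16 genes the 3 WT points lie above the 3 β8ITG-cKO points, and in Fos WT runs from 14.02 to 83.6 FPKM.

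Promoters of these genes were searched for known response elements, and 3 that hold one are shown with motifs in capitals. Of the 19 called members, 15 had a promoter in the RefSeq table (GRCm38). The 250 bases before the annotated start were searched on both strands for TGACGT (the core of the cAMP response element) and for the CArG box bound by serum response factor. TGACGT was found in 5 of these 15 genes (33.3%) against 7.29% of 27025 genes with a promoter, and a CArG box in 2 of 15 (13.3%) against 1.62%. A κB motif was found in 3 of the 15 (20%) against 6.73%, and CACGTG (the E-box) in 5 of the 15 (33.3%) against 6.86%. A gene with several annotated starts counted once if any window held the motif, and the motifs did not overlap in the windows shown. A match describes the letters only. List members that were not called were not counted, so these shares do not set the falls apart from the rest of the list. The Fos window lies at chr12:85473640-85473889 on the plus strand and holds TGACGT, with a κB motif further upstream. The Dusp5 window at chr19:53528895-53529144 on the plus strand holds a pair of adjoining CArG boxes and TGACGT on the opposite strand. The Zfp36 window at chr7:28379229-28379478 on the minus strand holds a single CArG box.
Fos: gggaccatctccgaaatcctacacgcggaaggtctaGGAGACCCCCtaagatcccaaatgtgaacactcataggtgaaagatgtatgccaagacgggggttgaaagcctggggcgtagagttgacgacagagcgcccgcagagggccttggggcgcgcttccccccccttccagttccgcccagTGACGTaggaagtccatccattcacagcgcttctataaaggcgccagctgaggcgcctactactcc
Dusp5: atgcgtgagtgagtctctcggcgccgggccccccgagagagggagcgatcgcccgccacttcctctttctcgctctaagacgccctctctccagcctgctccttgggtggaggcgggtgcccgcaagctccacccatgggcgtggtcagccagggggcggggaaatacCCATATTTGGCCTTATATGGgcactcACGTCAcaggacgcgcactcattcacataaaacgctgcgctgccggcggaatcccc
Zfp36: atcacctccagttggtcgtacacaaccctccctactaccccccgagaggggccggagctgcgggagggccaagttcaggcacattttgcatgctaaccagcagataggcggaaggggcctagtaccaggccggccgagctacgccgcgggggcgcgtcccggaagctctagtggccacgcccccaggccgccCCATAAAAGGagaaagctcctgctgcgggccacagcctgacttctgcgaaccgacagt

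Chemokine and inflammatory genes were also lower at baseline. Of 17 tested members 7 fell (41.2%, against 1.18%) and none rose, with a median log2 difference of -1.23, and the summed list was 8.98-fold lower in β8ITG-cKO. WT libraries held 492, 363 and 187 FPKM in sum and β8ITG-cKO libraries 41.4, 35.4 and 39.2 FPKM.

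Ccl2, which recruits monocytes, had 309.7, 189 and 105 FPKM in WT and 3.18, 6.87 and 3.73 FPKM in β8ITG-cKO. The lowest WT library was more than 10 times the highest β8ITG-cKO library, and the ratio of group means was 43.8. The log2 difference of -5.10 (standard error 0.39, adjusted p = 9e-04) was the largest fall among the genes named. Ccl7, its neighbor on chromosome 11 and also a monocyte chemokine, had 22.9, 17.1 and 3.77 FPKM in WT and 0.126, 0.259 and 0.285 FPKM in β8ITG-cKO (log2 difference -3.38, standard error 0.53, adjusted p = 0.0151). Cxcl10, an interferon-induced chemokine, had 8.28, 8.14 and 2.29 FPKM in WT and 0.0841, 0 and 0 FPKM in β8ITG-cKO (log2 difference -2.67, adjusted p = 0.0106). Cxcl2, a neutrophil chemokine, had 1.54, 4.80 and 1.61 FPKM in WT and 0.0429, 0.318 and 0 FPKM in β8ITG-cKO (log2 difference -1.60, adjusted p = 0.0292). Leaving out 1 library moved the list's count to between 2, without β8ITG-cKO replicate 3, and 9, without WT replicate 3. The count was 3 without β8ITG-cKO replicate 2, 4 without WT replicate 1 and 4 without β8ITG-cKO replicate 1, and 1 when genes of any level were tested. Ccl2 passed in each of the 6 fits with 1 library left out, whereas the adjusted p of Ccl7 was 0.0540 without β8ITG-cKO replicate 2 and 0.0682 without replicate 3. For Cxcl10 it was 0.0526 without β8ITG-cKO replicate 3, and for Cxcl2 it lay between 0.0592 and 0.110 without WT replicate 1 or any one β8ITG-cKO library.

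Inhibitors and members of the NF-κB pathway, which carries inflammatory signals to the nucleus, were lower too. Their list was added after the data were seen. Of 19 tested members 6 fell (31.6%, against 1.18% of all genes) and none rose, with a median of -0.61. Nfkbia and Tnfaip3 are also among the 7 called chemokine and inflammatory genes, so the 2 counts are not separate. Nfkbia, the inhibitor that NF-κB itself induces, had 71.0, 48.6 and 28.6 FPKM in WT and 11.4, 7.72 and 8.99 FPKM in β8ITG-cKO. The groups were well apart, with a log2 difference of -2.202 (standard error 0.30, adjusted p = 0.00914, and 0.0510 without β8ITG-cKO replicate 3). Tlr2, a receptor for bacterial lipoproteins, had 15.9, 9.09 and 14.7 FPKM in WT and 1.62, 2.37 and 2.49 FPKM in β8ITG-cKO (log2 difference -2.15, standard error 0.22, adjusted p = 0.00303). Tnfaip3, an enzyme that shuts off NF-κB signaling, had 25.6, 18.9 and 6.68 FPKM in WT and 3.19, 2.36 and 1.95 FPKM in β8ITG-cKO (log2 difference -2.21, adjusted p = 0.0249). Relb, a subunit of the non-canonical pathway, had 6.44, 4.52 and 7.54 FPKM in WT and 1.11 to 2.50 FPKM in β8ITG-cKO (log2 difference -1.49, adjusted p = 0.0171). The adjusted p of Tnfaip3 was 0.0550 to 0.0977 without any one library other than WT replicate 3. That of Relb was 0.0625 to 0.0788 without WT replicate 1, β8ITG-cKO replicate 2 or β8ITG-cKO replicate 3. The list's count was 2 without WT replicate 1, 2 without β8ITG-cKO replicate 2, 1 without β8ITG-cKO replicate 3, 4 without β8ITG-cKO replicate 1, and 1 when genes of any level were tested. All 4 called members with a promoter in the RefSeq table held a κB motif, against 6.73% of genes. Members that were not called were not counted, so this share does not set the falls apart from the rest of the list. The Nfkbia window, chr12:55492648-55492897 on the minus strand, is shown because its motif lies close to the start, in capitals.
Nfkbia: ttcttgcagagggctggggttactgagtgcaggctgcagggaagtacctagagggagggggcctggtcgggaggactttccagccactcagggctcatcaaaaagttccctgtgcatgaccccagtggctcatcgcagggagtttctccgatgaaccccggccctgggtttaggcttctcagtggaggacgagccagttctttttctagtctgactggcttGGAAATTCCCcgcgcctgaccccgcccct

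Genes that glucocorticoids induce, a list added after the data were seen, fell in 9 of 14 tested members (64.3%, against 1.18%), and all 14 had a difference below 0 (median -1.27). Mt2, a metal-binding metallothionein, had 48.8, 24.8 and 38.8 FPKM in WT and 0.951, 2.26 and 2.30 FPKM in β8ITG-cKO. No WT library was within 10 times of any β8ITG-cKO library, and the log2 difference was -3.75 (standard error 0.28, adjusted p = 9e-04). Cebpd, a transcription factor of the acute phase response, had 14.1, 11.96 and 7.74 FPKM in WT and 1.59, 1.97 and 1.76 FPKM in β8ITG-cKO (log2 difference -2.11, standard error 0.20, adjusted p = 0.00269). Both passed with each library left out in turn. The list's count was 4 without β8ITG-cKO replicate 3, 6 without β8ITG-cKO replicate 1 and 6 without β8ITG-cKO replicate 2. It was 5 when genes of any level were tested.

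The count of circadian clock genes, also a list added after the data were seen, moved less than the counts above when 1 library was left out. Of 22 tested members 7 fell (31.8%, against 1.18%) and none rose, with a median of -0.34 over the list. Nr1d1, a repressor of Arntl, had 33.6, 45.2 and 38.7 FPKM in WT and 7.10, 7.50 and 7.86 FPKM in β8ITG-cKO. Nr1d1 was 5.24-fold higher in WT with little spread in either group, and the log2 difference was -2.23 (standard error 0.13, adjusted p = 0.000274). Per1, a core repressor, had 24.4, 29.4 and 19.2 FPKM in WT and 6.82, 6.10 and 4.39 FPKM in β8ITG-cKO (log2 difference -1.90, standard error 0.19, adjusted p = 0.00303). Ciart, another clock repressor, had 7.92, 14.2 and 11.3 FPKM in WT and 2.44, 1.58 and 2.02 FPKM in β8ITG-cKO (log2 difference -1.99, standard error 0.21, adjusted p = 0.00332). Bhlhe40, which represses at E-boxes, had 45.8, 41.1 and 29.6 FPKM in WT and 12.4, 11.2 and 9.96 FPKM in β8ITG-cKO (log2 difference -1.69, standard error 0.17, adjusted p = 0.00303). These 4 genes passed in every fit with 1 library left out, and the list's count was between 5 and 7. The activators did not pass. Arntl had 8.92, 11.6 and 10.1 FPKM in WT and 8.27, 6.15 and 8.35 FPKM in β8ITG-cKO (adjusted p = 0.168), and Clock differed by -0.17. The hour of the day at which capsules were taken is not given in the sources used here, and its part in the result was not tested. The immediate early, chemokine, NF-κB, glucocorticoid-induced and clock lists share members, such as Nfkbia and Per1. Together these 5 lists held 44 different called falls, 25.4% of the 173.

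The E-box CACGTG, to which Clock and Arntl proteins bind, stood in the 250 bases before a start in 3 of the 6 called clock genes with a promoter in the table (50.0%), against 6.86% of all genes. Clock genes that were not called were not counted here. The Ciart window at chr3:95882229-95882478 on the minus strand held 3 copies, and the first of the 2 Per1 windows, chr11:69098699-69098948 on the plus strand, held 1. They are shown with the E-boxes in capitals because their genes fell together.
Ciart: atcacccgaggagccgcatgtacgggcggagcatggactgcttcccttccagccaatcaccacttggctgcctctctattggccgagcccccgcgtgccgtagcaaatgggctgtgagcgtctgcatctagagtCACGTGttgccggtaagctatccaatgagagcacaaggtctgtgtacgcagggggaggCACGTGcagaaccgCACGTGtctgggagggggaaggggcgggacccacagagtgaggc
Per1: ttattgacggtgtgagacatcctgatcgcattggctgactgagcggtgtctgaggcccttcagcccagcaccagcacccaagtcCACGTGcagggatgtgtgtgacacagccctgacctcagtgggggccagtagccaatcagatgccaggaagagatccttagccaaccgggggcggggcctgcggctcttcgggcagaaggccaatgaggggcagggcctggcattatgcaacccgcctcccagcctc

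Some stress and blood genes were lower as well. Hspa1a and Hspa1b, inducible Hsp70 genes that lie side by side on chromosome 17, and Bag3, their co-chaperone, were the only called members among 28 heat shock and unfolded protein genes (10.7%, against 2.52% of all genes). Hspa1b had 24.1, 15.9 and 14.9 FPKM in WT and 7.78, 8.05 and 7.76 FPKM in β8ITG-cKO (log2 difference -1.09, adjusted p = 0.0167), and the near-identical Hspa1a differed by -1.07 (adjusted p = 0.0201). Bag3 differed by -1.04 (adjusted p = 0.0119). None of the 3 passed without β8ITG-cKO replicate 3 (adjusted p from 0.0567 to 0.0867). Of 8 tested blood and vessel markers, the 4 adult hemoglobin genes fell (50%, against 1.18% of all genes). Hba-a1 had 60.1, 29.8 and 34.5 FPKM in WT and 6.60, 2.58 and 4.47 FPKM in β8ITG-cKO (log2 difference -2.93, standard error 0.32, adjusted p = 0.00399), and Hbb-bs had 20.4, 11.2 and 6.17 FPKM in WT and 1.33, 0.706 and 2.53 FPKM in β8ITG-cKO. The adjusted p of Hbb-bs was 0.0565 and 0.0684 without β8ITG-cKO replicates 1 and 2, and 2 of the 8 markers were called without any one β8ITG-cKO library. The summed marker list ran from 80.1 to 166 FPKM in WT and from 32.2 to 37.0 FPKM in β8ITG-cKO. Hba-a2 and Hba-a1 are near-identical copies, so their values are not separate evidence. Of 11 leukocyte markers 0 were called, where 2.52% of all genes were, and 1 had no overlap between the groups, where 30.8% of all genes had none. Their sum was 15.3 to 29.9 FPKM in WT and 14.2 to 23.5 FPKM in β8ITG-cKO, and 3 of the 22 listed were at 0 in all 6 libraries. In bulk RNA, fewer cells of a type and less RNA per cell cannot be told apart, and the part of blood in the other falls was not tested.

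Among interferon-stimulated genes 3 of 27 fell (11.1%, against 1.18% of all genes). Irf1, a transcription factor of the interferon response, had 13.8, 8.17 and 6.70 FPKM in WT and 2.23 to 2.73 FPKM in β8ITG-cKO (log2 difference -1.52, adjusted p = 0.0142, and 0.0716 without β8ITG-cKO replicate 3). Ifitm1 differed by -1.57 (adjusted p = 0.0317) and Gbp2 by -1.19 (adjusted p = 0.0372), and neither passed without WT replicate 1 (0.106 and 0.119), β8ITG-cKO replicate 2 (0.0882 and 0.121) or β8ITG-cKO replicate 3 (0.102 and 0.105). The list's median was -0.12, and its count was 1 without WT replicate 1, 1 without β8ITG-cKO replicate 2 and 0 without β8ITG-cKO replicate 3.

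Genes of matrix and fibrosis went both ways. In the fibrosis and epithelial-mesenchymal transition (EMT) list 3 of 29 rose and 3 fell (20.7% called, against 2.52% of all genes), and 2 were called without β8ITG-cKO replicate 3 and 3 without β8ITG-cKO replicate 1. Cyr61, a matricellular protein, had 56.9, 30.4 and 25.8 FPKM in WT and 6.82, 8.19 and 7.32 FPKM in β8ITG-cKO (log2 difference -2.12, adjusted p = 0.00635). Thbs1, a matrix protein that can release latent TGF-β, had 4.94, 3.13 and 5.10 FPKM in WT and 1.495, 1.92 and 1.53 FPKM in β8ITG-cKO (log2 difference -1.01, adjusted p = 0.0218). Its adjusted p was above 0.05 without any one library other than WT replicate 2 (0.0537 to 0.0936). Thbs1 was the only called gene of 17 TGF-β ligand and latency genes (5.88%, against 2.52% of all genes). Dcn, a small proteoglycan that binds TGF-β and a corneal stroma marker, was the only one of 30 receptors, Smads and inhibitors (3.33%). It had 2.78, 1.91 and 2.50 FPKM in WT and 0, 0.174 and 0.106 FPKM in β8ITG-cKO (log2 difference -1.63, adjusted p = 0.00303).

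Rises in this group were Ecm1, Tpm2 and Fn1. Ecm1, a secreted glycoprotein, had 0.918, 1.14 and 1.44 FPKM in WT and 14.6, 8.90 and 9.69 FPKM in β8ITG-cKO. Every β8ITG-cKO library was at least 6 times the highest WT library, with a log2 difference of 2.46 (standard error 0.19, adjusted p = 0.0011). Tpm2, a tropomyosin of contractile filaments, had 7.05, 8.85 and 9.48 FPKM in WT and 22.1, 14.8 and 18.6 FPKM in β8ITG-cKO (log2 difference 1.04, adjusted p = 0.0171, and 0.0811 without β8ITG-cKO replicate 3 or 0.0596 without WT replicate 1). Fn1, fibronectin, was at 2.13 to 3.29 FPKM in WT and 5.23 to 5.96 FPKM in β8ITG-cKO (log2 difference 0.84).

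**Figure D3:**
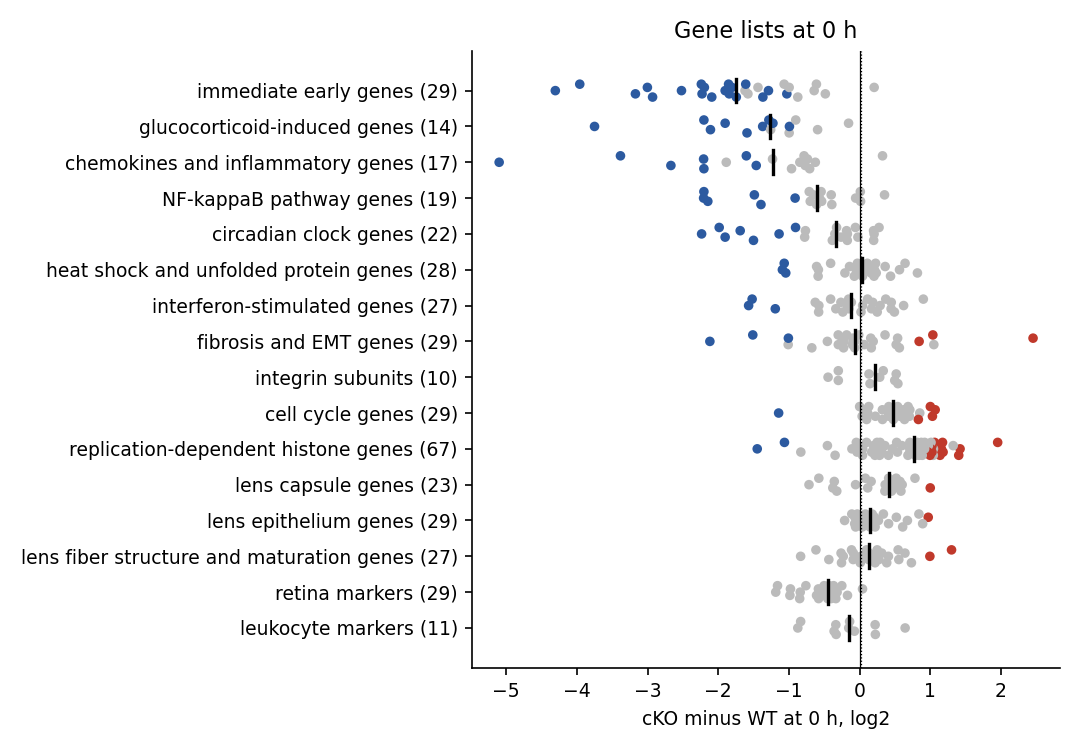
Each point is a tested gene of a list, at its β8ITG-cKO minus WT difference at 0 h PCS (log2, x axis), with the number tested in brackets. Blue points were called lower, red points called higher and gray points not called, black bars are list medians, and the dotted line is the median of all genes (0.02). Immediate early genes have a median of -1.74 and 19 blue points, and retina and leukocyte markers have none called.

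Cthrc1, a secreted protein of remodeling tissue, had 2.44, 2.47 and 2.84 FPKM in WT and 19.1, 19.9 and 22.3 FPKM in β8ITG-cKO. The groups were tight and far apart, with a ratio of means of 7.90 and a log2 difference of 2.58 (standard error 0.11, adjusted p = 6.76e-05). Angptl7, secreted in the anterior eye, had 1.49, 1.53 and 1.54 FPKM in WT and 22.1, 8.82 and 14.7 FPKM in β8ITG-cKO (log2 difference 2.60, adjusted p = 0.00332). Timp1, an inhibitor of metalloproteinases, had 1.64, 2.55 and 2.58 FPKM in WT and 18.4, 12.7 and 17.4 FPKM in β8ITG-cKO (log2 difference 2.40, standard error 0.18, adjusted p = 9e-04). Gal, the neuropeptide galanin, had 0.333, 0.547 and 1.10 FPKM in WT and 13.02, 5.78 and 9.60 FPKM in β8ITG-cKO (log2 difference 2.62, standard error 0.28, adjusted p = 0.00355).

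Clec11a, a secreted growth factor of the bone marrow, had 5.23, 4.603 and 4.29 FPKM in WT and 33.3, 21.3 and 25.1 FPKM in β8ITG-cKO (log2 difference 2.25, standard error 0.17, adjusted p = 9e-04). Serpina3n, an acute phase protease inhibitor, had 9.28, 11.6 and 3.12 FPKM in WT and 29.2, 42.0 and 39.3 FPKM in β8ITG-cKO (log2 difference 2.21, adjusted p = 0.0197). Its adjusted p was 0.0516 without WT replicate 1, 0.0731 without β8ITG-cKO replicate 2 and 0.0854 without β8ITG-cKO replicate 3. Cthrc1, Angptl7, Timp1, Gal and Clec11a passed in all 6 such fits. Egfem1, an EGF-like domain protein, had 0.136, 0.354 and 0.152 FPKM in WT and 4.94, 8.93 and 7.64 FPKM in β8ITG-cKO (log2 difference 2.72, adjusted p = 9e-04). Ush1c, the scaffold protein harmonin, had 0.105, 0.917 and 0.519 FPKM in WT and 4.28, 11.9 and 8.60 FPKM in β8ITG-cKO (log2 difference 2.56, standard error 0.34, adjusted p = 0.00842).

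H2-D1, a classical MHC class I gene on chromosome 17, had 9.77, 10.7 and 11.1 FPKM in WT and 36.6, 44.0 and 43.5 FPKM in β8ITG-cKO. It was 3.92-fold higher with very little spread (log2 difference 1.87, standard error 0.11, adjusted p = 0.000321). H2-D1 was the only called gene of 19 MHC and antigen presentation genes (5.26%, against 2.52% of all genes), whose median was -0.11. The groups differ in strain and Cre as well as in the deletion, so these cannot be told apart for H2-D1. A list of 19 tested genes with known strain differences had 1 call (5.26%), Pttg1, which acts at chromosome separation. Pttg1 had 6.40, 7.63 and 5.41 FPKM in WT and 1.47, 4.08 and 2.02 FPKM in β8ITG-cKO (log2 difference -1.14, adjusted p = 0.0414). That adjusted p was 0.0627 to 0.146 without any one library other than β8ITG-cKO replicate 2.

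The region around Itgb8 on chromosome 12 was examined because a targeted allele can carry flanking sequence of another strain. Within 10 Mb of Itgb8, 4 of 71 genes tested were called (5.63%), and within 25 Mb 6 of 147 (4.08%), against 2.52% of all genes. The 4 include Snora28, which at 24 h was at 0 and far above 0 within 1 group. The 6 also include Serpina3n, whose adjusted p rose above 0.05 in 3 of the fits with 1 library left out. The nearest called gene was Cdca7l, whose locus ends 0.964 Mb from Itgb8 and which binds Myc. Cdca7l had 1.13, 1.21 and 1.14 FPKM in WT and 5.18, 5.73 and 6.48 FPKM in β8ITG-cKO (log2 difference 1.65, standard error 0.13, adjusted p = 9.94e-04). The groups were tight and far apart.

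Shares of lens genes called at baseline were 0% for crystallins, 7.41% for fiber, 3.45% for epithelium and 4.35% for capsule genes, against 2.52% of all genes. None of 16 crystallin genes was called (1 without β8ITG-cKO replicate 1), and the summed crystallin FPKM was 78059 ± 11176 in WT (SD, n = 3) and 93180 ± 3980 in β8ITG-cKO (SD, n = 3). The WT sum holds the 0 listed for Cryaa in WT replicate 2. Without Cryaa, a choice made after the data were seen, the sums were 60572 ± 10974 in WT (SD, n = 3) and 65256 ± 2675 in β8ITG-cKO (SD, n = 3). Of 27 fiber genes 2 rose (7.41%, against 1.35% of all genes), and neither was called without WT replicate 2, β8ITG-cKO replicate 2 or β8ITG-cKO replicate 3. Slc7a11, the cystine transporter used for glutathione synthesis, had 19.4, 14.7 and 15.8 FPKM in WT and 27.8, 41.0 and 34.1 FPKM in β8ITG-cKO (log2 difference 0.995, adjusted p = 0.0174, and 0.0549 and 0.0811 without β8ITG-cKO replicates 2 and 3). Mab21l1, a gene needed for lens induction, was the only called gene of 29 lens epithelium genes (3.45%). It had 26.9, 28.0 and 25.9 FPKM in WT and 48.9, 59.5 and 53.4 FPKM in β8ITG-cKO, a ratio of means just above 2 (log2 difference 0.97, standard error 0.11, adjusted p = 0.00383). Its call was lost without β8ITG-cKO replicate 2, though the adjusted p there was 0.0178. Lamb1, a laminin chain of the capsule, was the only called gene of 23 lens capsule genes (4.35%), of which 17 had a difference above 0. Lamb1 had 19.8, 19.5 and 21.4 FPKM in WT and 33.1, 49.2 and 43.7 FPKM in β8ITG-cKO (log2 difference 1.001, adjusted p = 0.0134, and 0.0534 and 0.0760 without WT replicate 1 and β8ITG-cKO replicate 3).

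**Figure D4:**
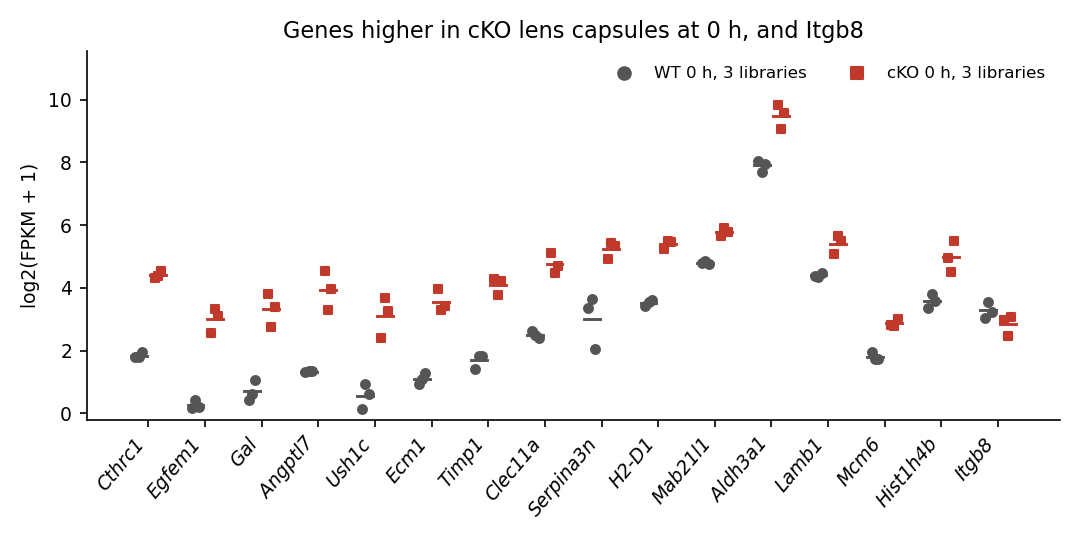
Expression of 15 genes that were higher in β8ITG-cKO lens capsules at 0 h PCS, with Itgb8 last for comparison, in log2(FPKM + 1) on the y axis. Gray circles are the 3 WT libraries and red squares the 3 β8ITG-cKO (cKO) libraries, from replicate 1 on the left to replicate 3 on the right, and bars are group means. In the first 15 genes no WT point reaches a β8ITG-cKO point, and in Itgb8, at 4.58 to 10.8 FPKM, the groups touch.

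Markers of neighboring tissues were checked for RNA of other cells. None of 29 retina markers was called, where 2.52% of all genes were, but 28 of the 29 had a difference below 0 (median -0.45). Their sum was 720, 2020 and 377 FPKM in the WT libraries and 688, 379 and 536 FPKM in β8ITG-cKO, so WT replicate 2 held the most. None of 11 pigment cell markers and none of 12 ciliary and iris markers was called, with sums of 54.2 to 130 FPKM and 120 to 216 FPKM in WT and 44.6 to 54.9 FPKM and 93.1 to 119 FPKM in β8ITG-cKO. Most leaned lower in β8ITG-cKO. Differences were below 0 in 9 of the 11 pigment cell markers (median -0.71) and 11 of the 12 ciliary and iris markers (median -0.61). By adjusted p alone, 2 ciliary and iris markers passed lower. The part of such RNA in the other falls was not tested. Of 9 corneal epithelium markers 1 rose and 1 fell (22.2% called, against 2.52% of all genes). Aldh3a1, an aldehyde dehydrogenase abundant in cornea that lens cells also express, had 264, 208 and 248 FPKM in WT and 911, 535 and 756 FPKM in β8ITG-cKO (log2 difference 1.58, standard error 0.21, adjusted p = 0.00801, and 0.0510 without β8ITG-cKO replicate 3). Sfn, an epithelial 14-3-3 protein, had 5.04, 3.5998 and 3.83 FPKM in WT and 0.542 to 1.16 FPKM in β8ITG-cKO (log2 difference -1.56, standard error 0.19, adjusted p = 0.00552). The corneal epithelium markers summed to 554 to 672 FPKM in WT and 1042 to 1483 FPKM in β8ITG-cKO, and Aldh3a1 made up most of this gap. Of the 9 members 6 had a difference below 0, the median was -0.49, and 3 passed lower by adjusted p alone. In the stroma and endothelium list Angptl7 rose, while Dcn and Col8a2 fell among 15 tested (20% called). Col8a2, a collagen of corneal endothelium, had an adjusted p of 0.0437, and 0.0627 to 0.159 without any one library other than WT replicate 2. The count of called immediate early genes was 19 without WT replicate 2, which had the highest retina marker sum. It was 12 without WT replicate 1, which had the highest pigment cell marker sum. The part of either RNA in these falls was not tested. Without WT replicate 3, 1 retina, 1 pigment cell and 3 ciliary and iris markers were called, and without β8ITG-cKO replicate 1, 1 ciliary and iris marker.

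Txnrd1, thioredoxin reductase, had 23.1, 18.3 and 23.8 FPKM in WT and 9.44, 9.54 and 9.55 FPKM in β8ITG-cKO (log2 difference -1.10, standard error 0.12, adjusted p = 0.00404). Srxn1, sulfiredoxin, had 13.96, 8.40 and 21.7 FPKM in WT and 3.58 to 4.41 FPKM in β8ITG-cKO (log2 difference -1.57, adjusted p = 0.0228, and 0.0621 to 0.0825 without WT replicate 1 or any one β8ITG-cKO library). They and Slc7a11 were the 3 called genes of 30 antioxidant genes (10%, against 2.52% of all genes). Adm, the peptide adrenomedullin, had 3.28, 1.44 and 2.38 FPKM in WT and was listed at 0 in all 3 β8ITG-cKO libraries, and Egln3, an oxygen sensor, rose (log2 difference 0.88, adjusted p = 0.0184, and 0.0596 and 0.0788 without WT replicate 1 and β8ITG-cKO replicate 3). They were the called members of 28 glycolysis and hypoxia genes (7.14%). Neither was called without WT replicate 1, although the adjusted p of Adm was 0.0243 there. Of 24 cholesterol synthesis genes 1 was called (4.17%), Ebp, a sterol isomerase (log2 difference 0.87, adjusted p = 0.0180, and 0.0559 to 0.0893 without WT replicate 1, β8ITG-cKO replicate 1 or β8ITG-cKO replicate 3). Of 54 nuclear-encoded respiratory chain genes and 77 cytosolic ribosomal protein genes, 0 were called, and 1 and 0 passed by adjusted p alone.

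Cell cycle genes leaned higher in β8ITG-cKO. Of 29 tested, 4 rose and 1 fell (17.2% called, against 2.52% of all genes), 28 had a difference above 0, and the median was 0.48. Mcm6, a subunit of the replicative helicase, had 2.91, 2.33 and 2.29 FPKM in WT and 6.05, 5.96 and 7.07 FPKM in β8ITG-cKO (log2 difference 1.07, standard error 0.13, adjusted p = 0.00603). Mcm3, of the same helicase, differed by 1.03 (adjusted p = 0.0176) and Rrm2, of ribonucleotide reductase, by 1.002 (adjusted p = 0.0424). Mcm6 passed in all 6 fits with 1 library left out, Mcm3 was at 0.0555 to 0.0683 without WT replicate 1, β8ITG-cKO replicate 1 or β8ITG-cKO replicate 2, and Rrm2 was at 0.0781 to 0.138 without any one library other than β8ITG-cKO replicate 2. Levels were low throughout, with sums of 61.9 to 64.8 FPKM in WT and 87.6 to 109 FPKM in β8ITG-cKO. The list's count was 1 without WT replicate 1, 1 without β8ITG-cKO replicate 1, and 2 without WT replicate 2, WT replicate 3 or β8ITG-cKO replicate 3.

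Replication-dependent histone genes rose in 15 of 67 tested members and fell in 2 (25.4% called, against 2.52% of all genes), with a median of 0.78. The summed list overlapped between the groups, at 1928 to 2666 FPKM in WT and 2054 to 3047 FPKM in β8ITG-cKO. Hist1h4b, a histone H4 gene, had 9.30, 13.05 and 10.9 FPKM in WT and 30.1, 21.6 and 44.3 FPKM in β8ITG-cKO (log2 difference 1.404, adjusted p = 0.0198, and 0.0550 to 0.0719 without WT replicate 1, β8ITG-cKO replicate 1 or β8ITG-cKO replicate 3). Hist4h4, an H4 gene on chromosome 6, had 11.8, 23.7 and 7.62 FPKM in WT and 52.5, 45.8 and 62.4 FPKM in β8ITG-cKO (log2 difference 1.95, adjusted p = 0.0203, and 0.0564 to 0.0914 without WT replicate 1 or any one β8ITG-cKO library). Hist1h1c, a linker histone gene, went the other way, with 373, 593 and 379 FPKM in WT and 188, 135 and 162 FPKM in β8ITG-cKO (log2 difference -1.45, standard error 0.21, adjusted p = 0.0119, and 0.0648 without β8ITG-cKO replicate 3). The count rested on single libraries: 0 histone genes were called without β8ITG-cKO replicate 3, 3 without β8ITG-cKO replicate 1, 6 without WT replicate 1, 8 without WT replicate 3 and 27 without β8ITG-cKO replicate 2. Histone copies are near identical, so reads may be split among them.

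Small noncoding RNAs accounted for a further block of rises. In the 5S rRNA cluster on chromosome 8, from 123538784 to 123622046, 28 of 33 tested copies were called higher, where 1.35% of all genes were. Log2 differences in the cluster were between 1.05 and 1.65. Summed over the cluster, WT libraries had 19596, 31025 and 17786 FPKM and β8ITG-cKO libraries 65097, 46486 and 41977 FPKM. The copies are 111 to 121 bases long and share their sequence, so they amount to 1 measurement. Of the 27 named copies 22 were called (81.5%), and none was without WT replicate 1, WT replicate 3 or any one β8ITG-cKO library. Among 37 snoRNA genes 6 rose (16.2%, against 1.35% of all genes). Snora74a went from 56.6, 185 and 81.5 FPKM in WT to 484, 381 and 466 FPKM in β8ITG-cKO (log2 difference 2.205, adjusted p = 0.0193, and 0.0503 to 0.0844 without WT replicate 1 or any one β8ITG-cKO library). The snoRNA count was 12 without WT replicate 2 and 3 without WT replicate 1, β8ITG-cKO replicate 1 or β8ITG-cKO replicate 3. Among 13 U RNA genes 5 rose (38.5%), of which Rnu3b1, Rnu3b2 and Rnu3b3 share 1 locus and the same values and so are 1 measurement. The count was 1 without any one β8ITG-cKO library and 3 without WT replicate 2. Rnu1b6, a U1 copy, rose from 46.2, 78.7 and 52.6 FPKM to 187, 174 and 197 FPKM (log2 difference 1.67, standard error 0.19, adjusted p = 0.00437).

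Several RNAs were listed at 0 in every WT library. The serine tRNA gene n-TSgct4, 82 bases long, was listed at 0 in all 3 WT libraries and had 10206, 8286 and 11821 FPKM in β8ITG-cKO. At 24 h it was at 9282 FPKM in WT replicate 1 and at 0 in the other 5 libraries, so it was also at 0 and far above 0 within 1 group. Rprl2, a ribonuclease P RNA-like gene, was listed at 0 in WT and had 4.37, 5.16 and 5.72 FPKM in β8ITG-cKO. Gm11942, a predicted gene, was listed at 0 in WT and had 15.6, 12.9 and 13.5 FPKM in β8ITG-cKO, and Gm10260, another, rose from 1.08, 1.69 and 0.812 FPKM to 33.3, 68.9 and 58.0 FPKM (log2 difference 4.59, standard error 0.27, adjusted p = 3.10e-04). Snora28 was listed at 0 in WT and had 20.3, 15.8 and 22.4 FPKM in β8ITG-cKO, and its listed locus is far longer than a snoRNA. At 24 h it had 0, 0 and 26.1 FPKM in WT and 16.1, 0 and 0 FPKM in β8ITG-cKO, so it too was at 0 and far above 0 within 1 group. Conversely Snhg9, a snoRNA host gene, had 21.4, 5.17 and 7.46 FPKM in WT and 0 in the 3 β8ITG-cKO libraries. LOC108169072 rose from 1.97, 2.103 and 1.01 FPKM to 11.6, 10.7 and 8.47 FPKM (log2 difference 2.08, adjusted p = 0.00269), and Gm3579 was the only predicted gene among the falls that met the naming rule, with 8.67, 12.8 and 8.43 FPKM in WT and 5.76, 3.95 and 4.33 FPKM in β8ITG-cKO.

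The 24 h libraries, separate libraries of the same genotypes, show which baseline differences were also found later. The sources used here do not say whether their capsules came from other mice. Of the 198 genes higher at 0 h, 195 were tested at 24 h and 22 were called higher again, where 3.66% of all genes tested at 24 h were called and 3.37% were higher. Of the 173 lower genes, 169 were tested and 9 were called lower again, where 0.286% of all genes were, and 1 was called higher. The median log2 difference of the rises went from 1.20 at 0 h to 0.16 at 24 h, and that of the falls from -1.36 to -0.18. In the test of genotype by time over 12 libraries, which 9.39% of all genes passed, 73 of the rises and 92 of the falls passed, and in these the 24 h difference lay closer to WT or beyond it. Because the genes were chosen for their 0 h difference, which enters the interaction, the shrinkage of the medians, the counts past the interaction test and their direction are partly built in. The interaction count of 1433 genes became 931 without WT replicate 1, 688 without β8ITG-cKO replicate 2 and 754 without β8ITG-cKO replicate 3. Retina markers also moved with genotype at 24 h, where their sum was 361, 478 and 594 FPKM in WT and 1678, 1461 and 1777 FPKM in β8ITG-cKO. Of the 29 markers 20 were called higher at 24 h (median 2.66) and 23 passed the interaction test, and the part of retina RNA in the other 24 h differences was not tested.

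Genes called the same way at both times numbered 31 (20 without WT replicate 1 and 16 without β8ITG-cKO replicate 3). Most of the 31 were predicted genes, pseudogenes or small RNA genes by their symbols, which make up 17.7% of all genes tested at 0 h. Gm10260 differed by 4.59 at 0 h and 4.33 at 24 h, Gm11942 by 3.90 and 3.61 and Rprl2 by 2.60 and 2.39. Cthrc1 differed by 2.58 and 1.59 (adjusted p = 0.0398 at 24 h), Ush1c by 2.56 and 1.69 and Hist4h4 by 1.95 and 3.24. Falls at both times included Sfn with -1.56 and -2.44 and Pttg1 with -1.14 and -1.70. The immediate early genes were not among them. Their list median was -0.24 at 24 h, none was called there, and 10 of the 19 called members passed the interaction test. In Ccl2, the difference went from -5.10 at 0 h to -0.27 at 24 h, when WT libraries had 205, 281 and 236 FPKM and β8ITG-cKO libraries 183, 177 and 236 FPKM. All 7 called clock genes passed the interaction test, and Nr1d1 at 24 h had 8.16, 13.3 and 9.92 FPKM in WT and 15.5, 22.96 and 15.9 FPKM in β8ITG-cKO.

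**Figure D5:**
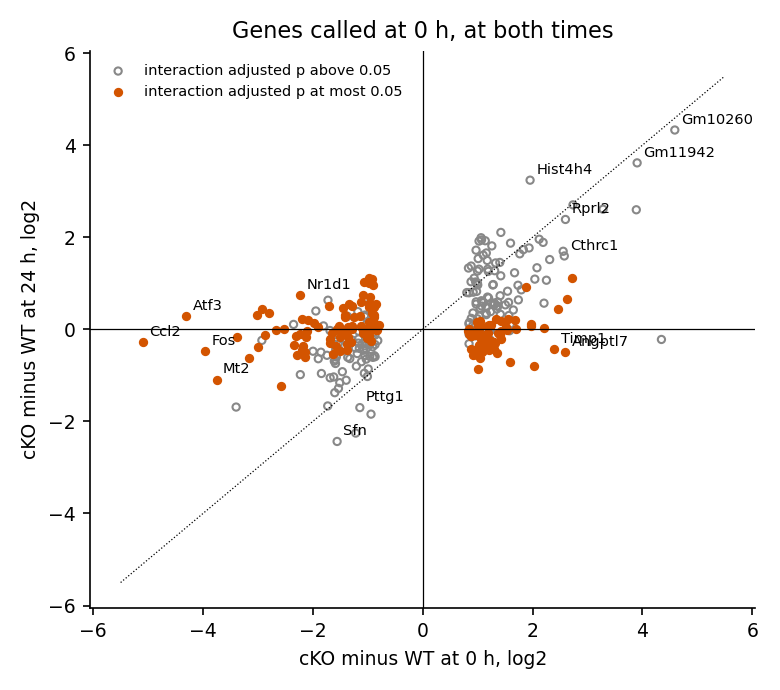
Genes called at 0 h PCS, except n-TSgct4, with the β8ITG-cKO minus WT difference at 0 h on the x axis and at 24 h on the y axis (log2). Orange points have an interaction adjusted p of at most 0.05, open points do not, and the dotted line marks equal differences. Gm10260, Gm11942 and Rprl2 lie near the dotted line, whereas Ccl2, Atf3 and Fos lie near 0 on the y axis.

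Lists that the study drew from its 24 h comparisons were read at 0 h. Of the genes whose rise by 24 h was attenuated in β8ITG-cKO, 55 were tested, 8 were already lower at 0 h (14.5%, against 1.18% of all genes) and none was higher (median -0.42). The count was 2 without β8ITG-cKO replicate 3, 4 without WT replicate 1 and 4 without β8ITG-cKO replicate 2. That list was chosen partly on the WT 0 h libraries used here and is not independent evidence of direction. The same holds for the TGF-β-induced, TGF-β-repressed and falling lens gene lists below. Arc, an activity-induced gene in it, had 6.69, 4.03 and 2.25 FPKM in WT and 0.931, 0.230 and 0.144 FPKM in β8ITG-cKO (log2 difference -1.84, adjusted p = 0.0218, and 0.0610 to 0.0931 without WT replicate 1, β8ITG-cKO replicate 2 or β8ITG-cKO replicate 3). Of 50 tested TGF-β-induced genes lower in β8ITG-cKO at 24 h, 5 fell at 0 h (10%) and the median was -0.11, with 2 called without β8ITG-cKO replicate 3 and 3 without WT replicate 1. Cilp, a matrix protein of cartilage, was one of them, with 14.002, 16.1 and 14.5 FPKM in WT and 4.33, 5.43 and 4.54 FPKM in β8ITG-cKO (log2 difference -1.46, standard error 0.12, adjusted p = 0.00123). Trib1, a pseudokinase, differed by -1.51 (adjusted p = 0.0039), and Flnc, a muscle filamin, by -1.61 (adjusted p = 0.0259, and 0.0617 to 0.0967 without WT replicate 1 or any one β8ITG-cKO library). Of 45 TGF-β-repressed genes 1 was called (2.22%, against 2.52% of all genes), Fzd5, a Wnt receptor, which was lower at 0 h (log2 difference -0.88, adjusted p = 0.0227). Its adjusted p was 0.0676, 0.0810 and 0.0969 without WT replicate 1, β8ITG-cKO replicate 2 and β8ITG-cKO replicate 3, where 0 of the list were called, and 2 were called without β8ITG-cKO replicate 1. None of the 25 lens genes that fall in WT by 24 h was called at 0 h, with 2 called without β8ITG-cKO replicate 1 and 1 without WT replicate 3.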

How the data were processed

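Libraries were total RNA (SMARTer Stranded Pico), sequenced as read pairs. The submitters' processing notes name FastQC, cutadapt 1.12, TopHat2 2.1.0, Cuffdiff 2.2.1, mm10 and GRCm38.p5. The authors deposited FPKM per gene and library, as Cuffdiff gave them, beside Cuffdiff's group values, fold changes, p and q values, which were not used here. Read counts were not used, so counting error is unknown.

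Members and gene lists were chosen with earlier results of these data known. FPKM of β8ITG-cKO and WT at 0 h were compared with limma-trend (limma 3.58.1, R 4.3.3) on log2(FPKM + 1), with Benjamini-Hochberg adjustment over the 14708 genes averaging 0.5 FPKM or above. The pseudocount of 1 understates changes of low genes. The call criteria follow the study's methods. Genes were tested for genotype by time in 1 fit over 12 libraries. Exact permutation of 3 against 3 libraries reaches no p under 0.1. The fits were tested on simulated data. Named genes were Itgb8 and its partners, the 12 genes with the largest rise and the 12 with the largest fall among those called with at least 5 FPKM in the higher group and no overlap (3 each for predicted and small RNA genes), up to 4 called members of each list, and strain-list genes past the threshold. Others were chosen after their values were seen, and some genes that met the rule are not reported here. Positions are 1-based and those of the files, and a locus can span overlapping genes. Of 45859 genes, 90.0% of symbols were found in RefSeq GRCm38, and 99.9% of those on the same chromosome overlapped. Promoters are from RefSeq and exon 4 from GENCODE vM21. The symbols Gjf1, Ca9, Mela, Ocl1, Crif1, Glpr2 and Itpr12 of the lists were not found in the files. Alternatives were other pseudocounts, filters, thresholds, rescaling, a replicate block, library weights, 1 joint fit and each library left out.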

Additional observations from a re-analysis of the deposited data

Results flagged for a closer look

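For 47 of the 94 genes named, the β8ITG-cKO minus WT difference at 24 h differed from that at 0 h by the test of genotype by time (limma, adjusted p at most 0.05), which 9.39% of all genes passed. The genes were named for their 0 h difference, which enters this test, so the count and the direction of the values are partly built in. Values are the 24 h difference less the 0 h difference, on the log2(FPKM + 1) scale. A positive value means that β8ITG-cKO moved up relative to WT.

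Among immediate early genes and Gem, Adamts1, Cyr61 and Trib1 the values were Atf3 4.59, Fos 3.49, Dusp5 2.56, Zfp36 2.62, Gem 2.75, Adamts1 3.33, Cyr61 1.96 and Trib1 1.04. Among chemokine, NF-κB and interferon genes they were Ccl2 4.83, Ccl7 3.21, Cxcl10 2.64, Tnfaip3 2.43, Nfkbia 1.76, Tlr2 1.54, Relb 1.49 and Irf1 1.59. In glucocorticoid-induced and clock genes they were Mt2 2.65, Cebpd 2.06, Nr1d1 2.98, Ciart 2.11, Per1 1.95 and Bhlhe40 1.4. In blood and stress genes they were Hba-a1 3.37, Hba-a2 3.16, Hspa1a 2.09, Hspa1b 1.85 and Adm 2.23. For the remaining genes that were lower at 0 h they were Dcn 1.86, Col8a2 0.95, Fzd5 1.38 and Hist1h1c 1.91.

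Genes that were higher at 0 h had negative values. They were Angptl7 -3.10, Timp1 -2.83, Aldh3a1 -2.29, Ecm1 -2.01, Gal -1.95, Egfem1 -1.61, Tpm2 -1.66, Slc7a11 -1.54, Ebp -1.29, H2-D1 -0.96 and Lamb1 -0.92 for annotated protein genes. For small RNAs they were Snora74a -2.18, Snord17 -1.34, n-R5s123 -1.57 and n-R5s122 -1.51. The value of n-TSgct4 was -17.68, but it comes from a gene listed at 0 in 8 of 12 libraries and is no measure of size. Groups of 3 libraries were too small for the search for single outlying libraries.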

How the results depend on the processing

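With the replicate number as a block, 224 genes were called, 220 of them among the 371. The numbers did not pair the libraries: deviations of same-numbered libraries correlated at -0.0193, -0.0699 and -0.0468, and 0 of 6 libraries correlated best with their own number. There were 130 calls when genes of any level were tested, which nearly doubles the genes adjusted for, 101 with a fold change over 4 and 1020 by adjusted p alone. Leaving out each library in turn gave 125 to 378 calls, 8 to 22 called immediate early genes, 688 to 1476 genes past the interaction test and 16 to 30 genes called the same way at both times, and each such fit had 1 library less. With genes of any level, 7 immediate early genes were called. Other pseudocounts, the higher filter, rescaling, library weights and the joint fit gave 312 to 456 calls, and no gene shared with the 371 changed sign under any alternative. No named gene changed sign in any of 16 alternatives, and 40 of the 91 past the threshold stayed past it with each library left out. Total read numbers are unknown, so low values have no counting interval.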

Other observations

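Several abundant genes outside the naming rule were called, and these were chosen after their values were seen. R3hdml, a secreted protein of the CRISP family, had 119, 123 and 135 FPKM in WT and 439, 433 and 396 FPKM in β8ITG-cKO at 0 h (log2 difference 1.74, standard error 0.11, adjusted p = 0.000432). S100a6, a calcium-binding protein, had 211, 176 and 185 FPKM in WT and 552, 374 and 499 FPKM in β8ITG-cKO (log2 difference 1.30, adjusted p = 0.00755). Calr, the endoplasmic reticulum chaperone calreticulin, had 137, 164 and 129 FPKM in WT and 299.6, 302 and 282 FPKM in β8ITG-cKO (log2 difference 1.04, adjusted p = 0.00562). Ctsl, the lysosomal protease cathepsin L, had 745, 652 and 775 FPKM in WT and 1159, 1756 and 1465 FPKM in β8ITG-cKO (log2 difference 0.99, adjusted p = 0.0252). Rpph1, the RNA of ribonuclease P, was the most abundant called gene, with 28220, 33684 and 18547 FPKM in WT and 8430, 9378 and 9170 FPKM in β8ITG-cKO (log2 difference -1.53, adjusted p = 0.0353). At 24 h Rpph1 differed by -1.28 (adjusted p = 0.0789).

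Calls were not evenly placed on the chromosomes. Chromosome 8 had 45 calls among 821 genes (5.48%) and chromosome 13 had 32 among 577 (5.55%), where the 5S rRNA and histone clusters lie. On the X chromosome 6 of 464 genes were called (1.29%), all higher, and none of the Y-linked genes tested was called.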
